A study of Mus musculus with 4 samples.

Results

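The genes described here decide what a muscle cell does with pyruvate: the 2 subunits of its mitochondrial carrier (Brp44 and Brp44l), pyruvate carboxylase (Pcx), 3 kinases that switch pyruvate dehydrogenase off (Pdk1, Pdk2 and Pdk4), the catalytic subunit they act on (Pdha1), a phosphatase that switches it on again (Pdp1), and a subunit of isocitrate dehydrogenase further along the citrate cycle (Idh3a). They were chosen by symbol, as 9 genes of 21900 protein-coding mouse genes in RefSeq, and a gene that neither peak list names was counted as having no peak. Of the 9, 4 were named in at least 1 list, namely Brp44, Pcx, Pdk4 and Idh3a. Over all protein-coding genes, 27.1% had a peak in either list. The 9 were proposed with earlier results of these data known, so their count is not read against that share.

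The peaks are sites of MyoD, the bHLH factor that drives the muscle programme, mapped by chromatin immunoprecipitation and sequencing (ChIP-seq) in mouse myotubes, the fused cells that form muscle fibres. Myoblasts were taken from C57BL/6 mice at 2 weeks of age and differentiated over 5 days in DMEM with 2% horse serum, and the resulting myotubes were then held for 24 hours in differentiation medium that contained pyruvate or lacked it. The design had 4 samples, a MyoD ChIP (antibody SC-760) and an input for each medium, so each condition had 1 ChIP library. No p-value was computed and no difference between the lists has a replicate check. The labels name no transgene, deletion or agent other than pyruvate, and do not say how many mice gave the cells.

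The peak list whose sample title says with pyruvate (the with-pyruvate list) held 11907 peaks and its counterpart (the without-pyruvate list) held 19338, and 71.8% of the first (95% exact binomial interval 71.0 to 72.7) and 44.2% of the second (43.5 to 44.9) overlapped the other by at least 1 base. The intervals cover counting error only. The depth of sequencing is unknown, and a site absent from 1 list can have fallen below its detection limit. Which list stands for which medium rests on the sample titles alone, because an abbreviation in the deposited names could be read the other way and no measured value checks it. Of 6 muscle genes used as a check (Myog, Des, Chrna1, Ttn, Acta1 and Ckm), 6 carried a peak in the with-pyruvate list and 5 in the other, where Ckm had none. Over all protein-coding genes the shares were 17.8% and 24.5%. Peaks are no measure of RNA, so this shows only that muscle genes were bound in both libraries.

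Pyruvate is made by glycolysis in the cytosol and enters the mitochondrion through a carrier built from Brp44 (now Mpc2) and Brp44l (now Mpc1), which work as a pair. Inside, pyruvate dehydrogenase turns it into acetyl-CoA and pyruvate carboxylase turns it into oxaloacetate, which refills the citrate cycle. The dehydrogenase is inhibited when its kinases phosphorylate the E1 alpha subunit, encoded by Pdha1, and is reactivated by phosphatases such as Pdp1. In skeletal muscle Pdk4 is the kinase best known for rising in fasting. MyoD binds E-boxes, short sites of the form CANNTG, with CAGCTG and CACCTG among its preferred forms.

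Promoter sequence was available in the RefSeq table (build GRCm38.p6) for 7 of the 9 genes, in 11 windows that each ran from 250 bases before a start to 50 bases after it. Idh3a and Pdp1 had no entry. The first windows of Brp44, Pcx and Pdk4 are shown because a MyoD peak lay at or just past the start of these genes. That of Pdk1 is shown because it holds CAGCTG, a preferred form, while the gene had no peak. Each runs 5′ to 3′ on the gene's strand and capitals mark every CANNTG. The windows are chr1:165461010-165461309 (plus strand), chr19:4510222-4510521 (plus strand), chr6:5496229-5496528 (minus strand) and chr2:71872974-71873273 (plus strand).
Brp44: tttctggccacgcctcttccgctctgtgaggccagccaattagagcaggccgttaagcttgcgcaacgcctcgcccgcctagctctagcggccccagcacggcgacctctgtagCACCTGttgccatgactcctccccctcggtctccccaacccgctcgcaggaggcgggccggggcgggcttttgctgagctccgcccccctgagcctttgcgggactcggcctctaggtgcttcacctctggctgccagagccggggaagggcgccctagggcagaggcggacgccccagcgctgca
Pcx: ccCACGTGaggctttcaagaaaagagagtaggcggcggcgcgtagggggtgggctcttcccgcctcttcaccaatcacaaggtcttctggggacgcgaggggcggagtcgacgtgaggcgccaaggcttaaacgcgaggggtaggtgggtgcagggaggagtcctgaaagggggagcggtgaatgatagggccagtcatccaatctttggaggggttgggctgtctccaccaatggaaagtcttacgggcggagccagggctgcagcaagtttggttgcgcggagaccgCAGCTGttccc
Pdk4: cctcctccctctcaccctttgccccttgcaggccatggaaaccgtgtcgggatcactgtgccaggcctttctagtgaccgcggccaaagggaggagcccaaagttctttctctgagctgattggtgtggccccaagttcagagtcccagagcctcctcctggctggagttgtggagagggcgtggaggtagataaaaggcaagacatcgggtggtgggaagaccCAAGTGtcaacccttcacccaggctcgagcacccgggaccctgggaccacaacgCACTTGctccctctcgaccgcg
Pdk1: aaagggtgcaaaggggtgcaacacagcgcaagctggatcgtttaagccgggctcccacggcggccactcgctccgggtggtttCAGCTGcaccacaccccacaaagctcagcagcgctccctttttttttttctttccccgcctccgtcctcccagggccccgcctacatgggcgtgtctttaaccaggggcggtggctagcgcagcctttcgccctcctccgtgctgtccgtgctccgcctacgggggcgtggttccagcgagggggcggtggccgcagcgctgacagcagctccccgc

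With the start base counted as 0, the Brp44 window held 1 E-box, CACCTG, whose first base lay at -136. The Pcx window held CACGTG at -248 and CAGCTG at 39, on the transcribed side of the start. In the Pdk4 window CAAGTG lay at -26 and CACTTG at 28, neither of them a preferred form. In the Pdk1 window CAGCTG lay at -167. Brp44l, also without a peak, held CAGGTG at -180 in its second window, which is not printed. CANNTG reads the same on both strands, and CACCTG was searched together with its reverse complement CAGGTG. Both are also matches to CANNTG.

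Over the 11 windows, 9 held CANNTG, 3 held CAGCTG and 2 held CACCTG on either strand. Of all 32851 windows of 300 bases in the table, 72.3% held CANNTG, 16.3% CAGCTG and 20.2% CACCTG. The windows without any CANNTG were the first of Brp44l and the second of Pdk2. Such matches describe the letters of a window and are not evidence of binding.

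The carrier had a peak at 1 of its 2 genes, and 15.2% of all protein-coding genes had a peak in both lists. Brp44 (ENSMUSG00000026568, plus strand) had a single peak over its start in both lists, and its partner Brp44l had none in either. The peak was 319 bases wide in the with-pyruvate list, at chr1:167391095-167391414 of mm9, and 310 bases wide in the without-pyruvate list, at chr1:167391114-167391424. These widths lay at percentiles 76.0 and 76.7 of all peaks in the respective lists, above the median in each.

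The Brp44 peaks of the 2 lists shared 300 bases, which is 94.0% of the first and 96.8% of the second, and their centres were 14.5 bases apart. Over 8444 pairs in which 1 peak met 1 peak, the median distance between centres was 17.5 bases (interquartile range 8 to 33.0), so the carrier peak sat in nearly the same place in both libraries. It ran from -73 to 246 around the start in the with-pyruvate list and from -54 to 256 in the other. If the RefSeq start and the start in the files are the same base, the CACCTG printed above lay outside the peak on its upstream side in both lists. That was not checked, and the 2 gene models differ in length. The gene spans chr1:167391168-167411345 in the files, and RefSeq gives it 19959 bases. The starts may therefore differ, and whether the CACCTG lay inside the peak is not known.

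The same peak was also assigned to Dcaf6, a gene on the opposite strand that encodes a DDB1- and CUL4-associated factor. The starts of Brp44 and Dcaf6 were separated by 571 bases in the files. The peak covered the Brp44 start and began 499 bases from that of Dcaf6 in the with-pyruvate list and 518 bases in the other. It therefore lay within 2 kb of both starts, and which gene it serves cannot be told from position. The list labelled without pyruvate had a further peak inside Dcaf6, 256 bases wide, 28.0 kb from Brp44 and without a partner.

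**Figure D1:**
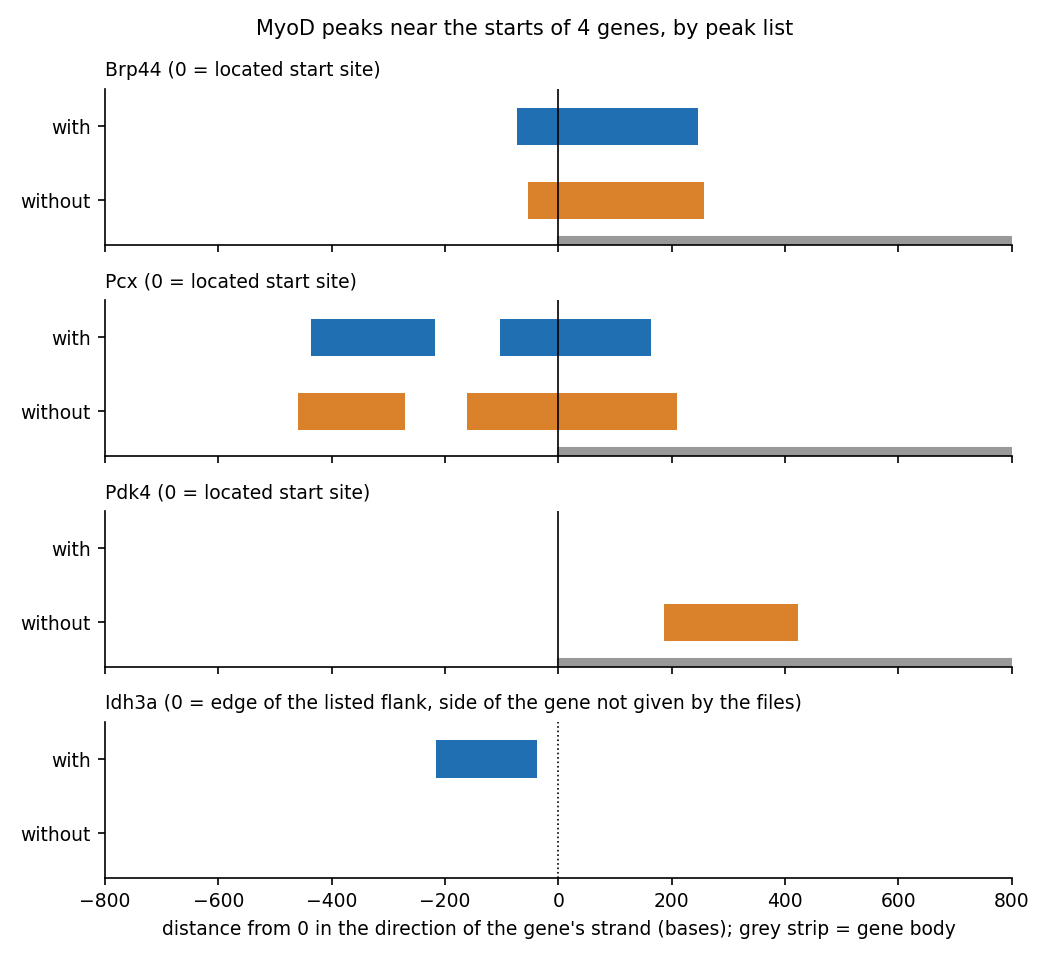
Each bar is a MyoD peak placed by its distance in bases from the located start (0), in the direction of the gene's strand, with 1 row per peak list; for Idh3a, 0 is the edge of the only flank the files list. Brp44 has 1 bar and Pcx 2 bars in both rows, Pdk4 only in the row without pyruvate (187 to 423) and Idh3a only in the row with pyruvate (-216 to -38).

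Pcx, the carboxylase, had the most peaks of the 9 genes, with 4 in each list, and every one of them had a partner in the other list. It is also the longest of the 9, at 111 kb in RefSeq against 30.6 kb for the next, Pdk1. Its number of peaks was not set against genes of like length. The gene (ENSMUSG00000024892, plus strand) spans chr19:4510472-4621752 of mm9 in the files. The peaks came as 2 close pairs, at the start and about 37 kb inside the gene. Among the 6147 gene symbols in the files, 36 (0.586%) had 4 peaks in each list, and in 12 of these, Pcx included, all the peaks overlapped the other list. No other gene of the pathway list described below was among the 36.

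At the start of Pcx, the upstream peak was 219 bases wide in the with-pyruvate list (chr19:4510035-4510254) and 189 bases wide in the without-pyruvate list (chr19:4510012-4510201). The peak over the start was 268 bases wide with pyruvate (chr19:4510368-4510636) and 371 bases wide without (chr19:4510311-4510682). The gap between them was 114 and 110 bases. The start peak of the second list thus contained that of the first whole and extended past it on both sides, with the centres 5.5 bases apart.

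That start peak was the widest of all member peaks in either list, at percentile 87.8 of its list against 58.4 for its partner. The ratio of its widths, without to with, was 1.38, against a median of 1.08 over the 8444 pairs and a range from percentile 5 to percentile 95 of 0.640 to 1.74. It lay at percentile 82.4 of the ratios and so inside the spread of shared peaks. By distance from the start, and again if both tables use the same start base, the CAGCTG at 39 fell inside the start peak of both lists, which ran from -104 to 164 and from -161 to 210. The CACGTG at -248 fell inside the upstream peak of the with-pyruvate list (-437 to -218) and just outside that of the other list (-460 to -271).

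Inside Pcx, the first internal peak was 283 bases wide with pyruvate (chr19:4547848-4548131) and 263 bases wide without (chr19:4547857-4548120), with centres 1.0 base apart. The second was 194 bases wide with pyruvate (chr19:4548579-4548773) and 265 bases wide without (chr19:4548538-4548803). They began 37.4 and 38.1 kb from the start and were separated by 448 and 418 bases. Of the 4 Pcx peaks, 2 were wider in each list. The second internal peak had a width ratio of 1.37 (percentile 81.2), the first 0.929 (percentile 29.0) and the upstream peak 0.863 (percentile 21.1), so the gene showed no common direction in width.

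**Figure D2:**
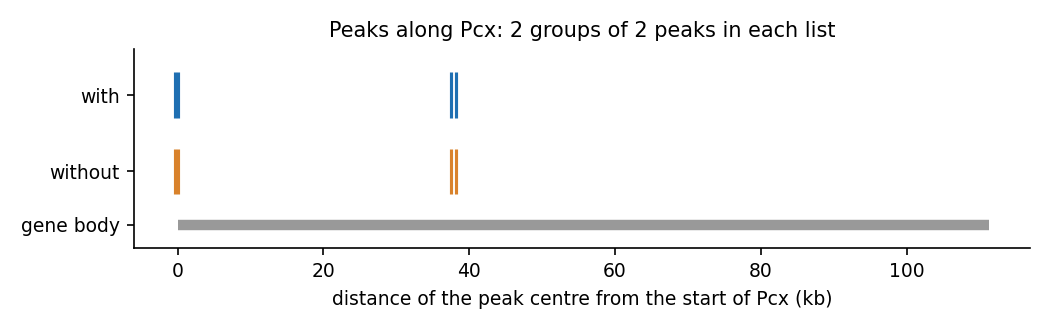
The horizontal axis is the distance in kb of each peak's centre from the start of Pcx, with 1 row per peak list and the gene body as a grey bar of about 111 kb. Each list shows 1 pair of peaks at the start and 1 pair close to 38 kb, and the rest of the gene body carries no peak.

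Of the 3 kinase genes, 1 had a peak, in the without-pyruvate list only. Over all protein-coding genes, 24.5% had a peak in that list and 9.26% had one in that list only. Pdk4 (ENSMUSG00000019577, minus strand, chr6:5433351-5446309) had a single peak in the without-pyruvate list, at chr6:5445886-5446122, and none in the with-pyruvate list. The peak was 236 bases wide, at percentile 47.8 of its list, and lay wholly within the gene, from 187 to 423 bases past the start. The files give no exons, so exonic and intronic positions were not assigned for any peak. The RefSeq window printed above runs only to 50 bases past the RefSeq start, which was not matched to the start in the files, so the sequence under the peak is not shown.

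Lack of a partner was common for peaks of this size. Of the 1982 peaks in the without-pyruvate list that were within 10 bases of the width of the Pdk4 peak, 36.4% overlapped the other list. The nearest peak of the other list lay 52.7 kb away, against a median of 41.3 kb for the 10783 peaks of the without-pyruvate list that had no partner. That nearest peak lay outside all gene regions, 40.2 kb past the 3′ end of Pdk4 (chr6:5392815-5393168, 353 bases), and the without-pyruvate list had an overlapping peak of 178 bases at the same place (chr6:5392940-5393118). A further pair in the without-pyruvate list lay nearby without partners, 38.5 kb from Pdk4 (341 bases, outside all gene regions) and 53.6 kb from it (213 bases, in Asb4). The region around Pdk4 thus held 1 peak in the with-pyruvate list and 4 in the without-pyruvate list, within 60 kb of the gene. Genome-wide, the without-pyruvate list was also the longer, with 19338 peaks against 11907, and 55.8% of its peaks had no partner. Nothing particular to Pdk4 is read from these counts.

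Pdk1 and Pdk2, the other kinases among the 9, had no peak in either list. Pdha1, the subunit the kinases phosphorylate, and Pdp1, the phosphatase, had none either. With Brp44l, 5 of the 9 genes were thus without a peak, and 72.9% of all RefSeq protein-coding genes were. These 5 genes are 8.27 kb (Pdp1) to 30.6 kb (Pdk1) long in RefSeq. Of the 7442 protein-coding genes in that range of length, 14.3% had a peak in the with-pyruvate list, 19.9% had one in the without-pyruvate list, and 77.0% had one in neither. Having no peak was therefore the usual state of genes of this length.

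The genes next to these 5 in RefSeq order were looked up, because the files give no position for a gene without a peak. Of the 10 neighbours, 1 had a peak in the with-pyruvate list and 6 in the without-pyruvate list, where the shares over all protein-coding genes were 17.8% and 24.5%. The neighbours are few and were not matched for length, so nothing is read from these counts. Beside Pdk1, the integrin gene Itga6 had 1 peak in the without-pyruvate list (225 bases) and Rapgef4, which encodes an exchange factor for Rap proteins, had 4 (205 to 272 bases). Beside Pdk2, the integrin gene Itga3 had 2 (227 and 223 bases). Sft2d1, next to Brp44l, had 1 of 306 bases, and the cadherin gene Cdh17, next to Pdp1, had 1 of 160 bases. These 9 peaks were all in the without-pyruvate list and had no partner, as had 55.8% of all peaks of that list, and with no with-pyruvate peak at these 5 genes the lack of partners was nearly fixed. Adgrg2, listed as Gpr64 and next to Pdha1, had 1 peak in the with-pyruvate list (177 bases) that overlapped 1 of its 2 in the other list (342 bases).

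Idh3a, which encodes the catalytic subunit of the NAD-dependent isocitrate dehydrogenase, was the only one of the 9 genes with a peak in the with-pyruvate list alone. The peak was 178 bases wide (chr9:54434072-54434250), at percentile 9.17 of its list, in which the narrowest peaks were 169 bases. It was the narrowest of the 12 peaks at these genes. Of the 1883 peaks of that list within 10 bases of its width, 54.9% had a partner. The nearest peak of the other list lay 40.8 kb away, in Acsbg1, against a median of 18.8 kb for the 3352 peaks of this list without a partner.

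For Idh3a (ENSMUSG00000032279, plus strand) the files list only a 2000-base flank, chr9:54432288-54434287, and do not say on which side of the gene it lies. The next gene in RefSeq order, Acsbg1, began 18396 bases past the flank in the files, and RefSeq gives Idh3a a length of 18152 bases, so the gene would fill that room if the flank is the upstream one. In that case the peak would lie from -216 to -38 before the start. Without genes known only by a flank, Idh3a no longer counted as having a peak near its start, and the with-pyruvate list then had 2 of the 9 genes in place of 3.

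**Figure D3:**
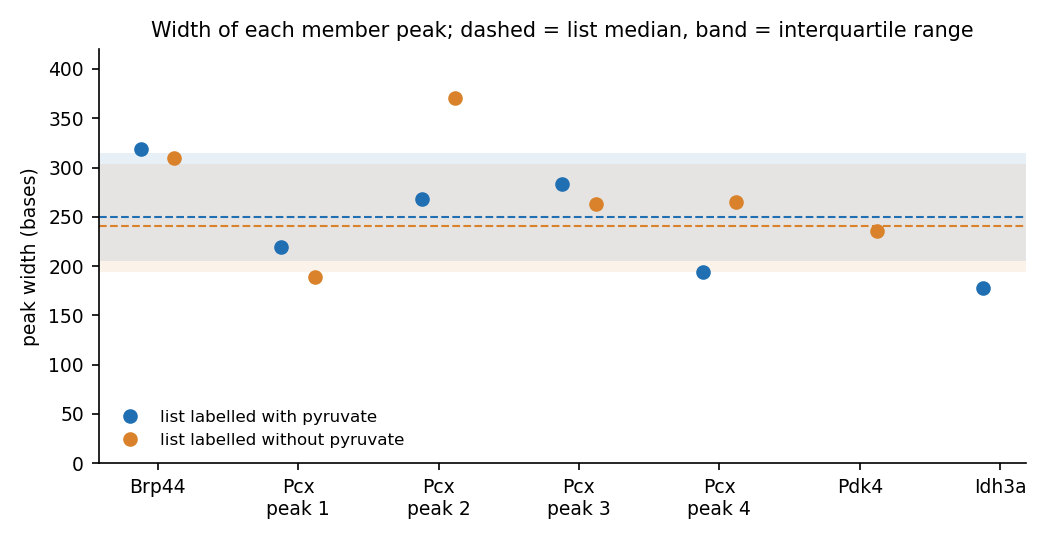
Points give the width in bases of each peak at Brp44, Pcx (numbered from the upstream end), Pdk4 and Idh3a, by peak list, with each list's median (dashed) and interquartile range (band). Brp44 lies above the medians in both lists, the Pcx start peak of the list without pyruvate is the highest at 371, and Idh3a is the lowest at 178.

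Counted by gene, each list had a peak at 3 of the 9 genes, against 17.8% of all protein-coding genes in the with-pyruvate list and 24.5% in the without-pyruvate list. There were 2 in both lists (background 15.2%), 1 only with pyruvate (background 2.62%) and 1 only without (background 9.26%). The counts were the same for proximal peaks, meaning those within 2 kb of a located start or in a flank of unknown side. For these the background was 5.95% with pyruvate, 8.67% without, 4.55% in both, 1.40% only with, 4.12% only without, 10.1% in either and 89.9% in neither. The 9 genes were proposed with earlier results of these data known, so their share is not read against the background. By peaks, 5 of the 6 in each list overlapped the other list, against 71.8% of all peaks with pyruvate and 44.2% without, and 4 of these 5 came from the single gene Pcx. In each list 4 of the 6 were proximal, where the with-pyruvate 4 include the Idh3a peak in a flank of unknown side. Of all peaks, 14.0% and 12.6% were proximal. Those shares also cover peaks outside all gene regions, which cannot belong to a member, so the figures are not read against each other.

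Likeness of pattern could be measured only by the number of peaks in the 2 lists. With 1 peak in each, Brp44 shared its numbers with 1342 of the 6147 symbols (21.8%, itself included), among them the pathway genes Cs and Dlst. Pdk4, with 0 and 1, shared them with 1711 (27.8%), among them the pathway genes Aco1, Sdhb and Suclg2. Idh3a, with 1 and 0, shared them with 511 (8.31%), none of them another gene of the pathway list.

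The wider pathway was described with a list of 44 genes of pyruvate use and the citrate cycle, the 9 included. A further gene of the planned list is not reported here, so counts and statements about the pathway hold for these 44. Of these, 7 had a peak in the with-pyruvate list (15.9%) and 10 in the without-pyruvate list (22.7%), close to the shares of 17.8% and 24.5% over all protein-coding genes. Proximal peaks were at 3 (6.82%) and 4 (9.09%), against 5.95% and 8.67%. Among the 35 genes other than the 9, 4 had peaks in each of the lists, 3 in the without-pyruvate list alone and 28 in neither. A proximal peak was seen at 1 of the 35, Sdhb, in a flank of unknown side. Of the 44 genes, 5 had a proximal peak in either list, against a background of 10.1%, and 4 of these 5 were Brp44, Pcx, Pdk4 and Idh3a. The 9 genes and the pathway list were chosen with earlier results of these data known. Nothing is therefore read from how many of the 5 are among the 9.

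By role the groups are small, and 27.1% of all protein-coding genes had a peak in either list. None of the 5 genes of lactate and monocarboxylate handling had a peak in either list (Ldha, Ldhb, Slc16a1, Slc16a3 and Slc16a7). None of the 5 subunits of the dehydrogenase complex had one (Pdha1, Pdhb, Dlat, Dld and Pdhx), nor any of the 3 phosphatase genes (Pdp1, Pdp2 and Pdpr). Pdk4 was the only one of the 4 kinase genes with a peak. Among the 6 carboxylase and anaplerosis genes, the malic enzyme genes Me1 and Me3 had peaks beside Pcx, and Pck1, Pck2 and Me2 had none.

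Me3, a mitochondrial malic enzyme gene of 222 kb, had 4 peaks with pyruvate and 6 without, of which 3 overlapped. The cytosolic malic enzyme gene Me1 had 1 peak of 176 bases with pyruvate, wholly within 1 of its 2 peaks without pyruvate (369 bases). Its width ratio of 2.1 was at percentile 98.3 of the shared pairs, the highest of any pathway peak. All of these lay inside the genes, 12.7 kb or more from the starts, unlike the start peaks of Pcx.

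In the citrate cycle, 6 of 19 genes had a peak in either list, close to the background of 27.1%. Cs, citrate synthase, had 1 of 291 bases in both lists, about 7 kb inside the gene, and Dlst, a subunit of the 2-oxoglutarate dehydrogenase complex, had 1 of 304 and 303 bases, about 11 kb inside. Peaks only in the without-pyruvate list were 300 bases wide at Aco1, which encodes a cytosolic enzyme, 172 at Suclg2, a succinyl-CoA ligase subunit, and 178 at Sdhb, a succinate dehydrogenase subunit. Idh3a was the only one with a peak in the with-pyruvate list alone, and the other isocitrate dehydrogenase genes (Idh1, Idh2, Idh3b and Idh3g) had none.

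**Figure D4:**
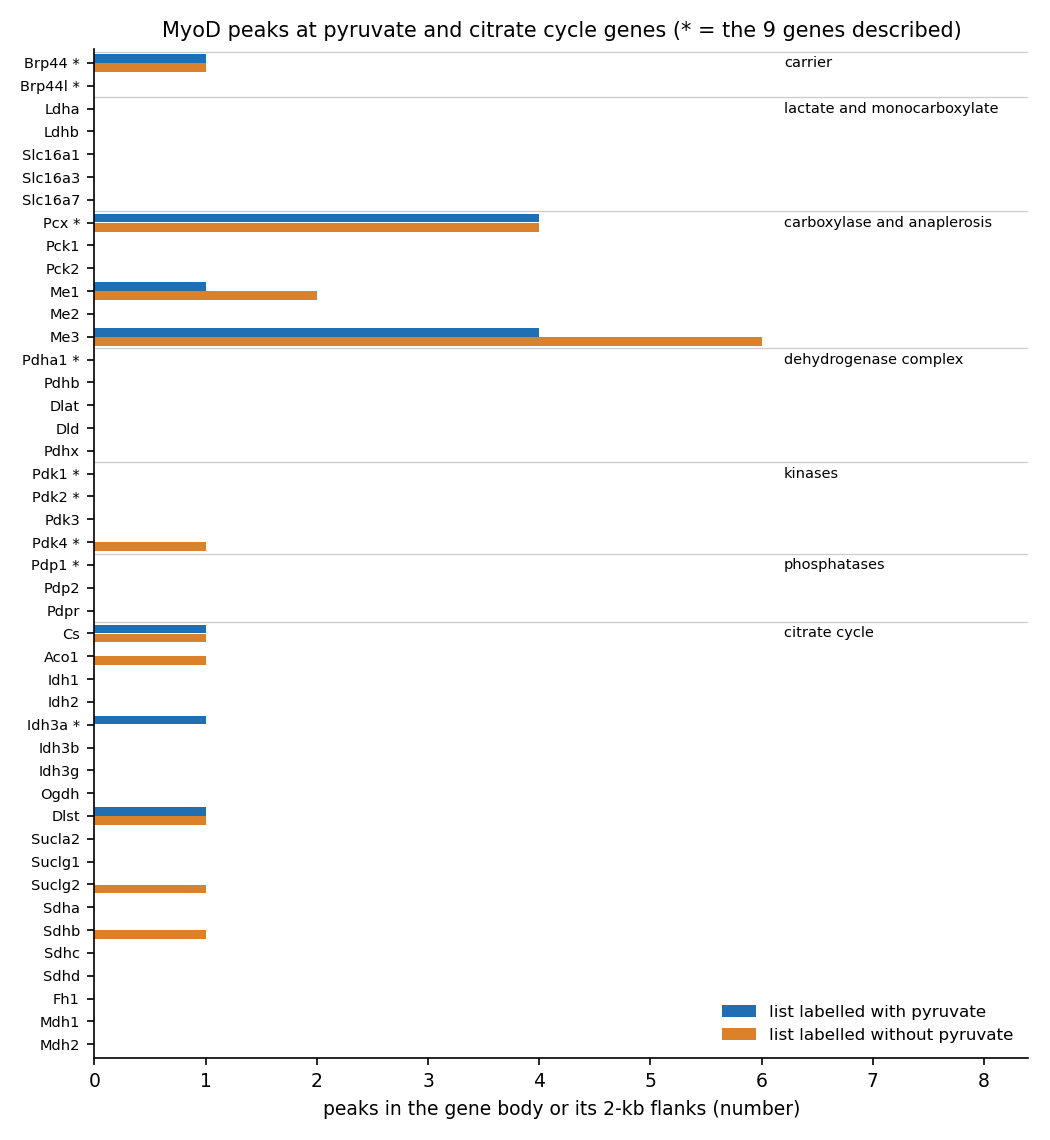
Bars give the number of peaks in the gene body or its 2-kb flanks for each of the 44 pathway genes, grouped by role, with 1 colour per peak list and an asterisk at the 9 genes described. Pcx has 4 in both lists and Me3 4 and 6, and 33 genes have none.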

How the data were processed

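The deposited files hold 1 MyoD peak list per ChIP library, made with bcl2fastq 2.19, Bowtie2 2.1.0 and MACS2 2.1.1 on mm9, per the submitters' processing notes. Not given in the sources used here are threshold, use of the inputs, filters and annotation source. The authors' fold enrichment columns hold 0 in every row with a number, so peak position and width (end minus start, as deposited) were the only measures. The inputs were not analysed here.

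Merging rows of the same peak took 13076 rows to 11907 peaks with pyruvate and 20902 rows to 19338 peaks without. A peak belonged to a gene where its row said so. Start sites came from gene bodies and strands in the files. A region of exactly 2000 bases was read as a flank. File symbols were matched to RefSeq (GRCm38.p6) by symbol or by a synonym of 1 gene only, 5939 of 6147. RefSeq served for names, lengths, neighbours and promoter sequences, and no coordinates were converted. Width percentiles are mid-ranks within a list. All 9 genes were to be named whatever their values, with every pathway gene that has a row and genes that share or neighbour a peak. One gene of the pathway list is not reported here. The members and lists were chosen with earlier results of these data known. The overlap code was tested on planted peaks. The tools were pandas 2.3.3 and numpy 2.4.6 under Python 3.11.15, with matplotlib 3.10.9 for figures and scipy 1.17.1 for intervals.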

Additional observations from a re-analysis of the deposited data

How the results depend on the processing

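Of 40 alternative values for the counts of genes and shared peaks, 37 stayed within 1.5 times the value reported. The 3 that did not came from keeping only peaks of at least 250 bases, which leaves 5993 and 8832 peaks: shared member peaks fell to 3 in each list, and pathway genes with a proximal peak in the without-pyruvate list to 2. Fewer peaks by construction account for this. The pairs no longer shared were both at Pcx. They were the upstream peak (219 bases with pyruvate, 189 without) and the second internal peak (194 with, 265 without). The Pdk4 and Idh3a peaks, which had no partner, are both below that width. Member genes with any peak, and those with a proximal peak, also fell from 3 to 2 in each list. A fall from 3 to 2 stays within 1.5 times, so the 37 say little about the stability of such small counts. With the without-pyruvate list limited to its 11907 widest peaks (218 bases or more), Pdk4 kept its peak and 4 member peaks of each list were shared. The gene counts of the with-pyruvate list could not change under that setting. A reciprocal overlap of 50% or centres within 100 bases left 5 shared. No paired analysis was possible because each condition has 1 ChIP library. Without read depth or enrichment, a peak in 1 list only cannot be told apart from one just below detection in the other.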
